A study of Danio rerio with 7 samples.

Results

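The 150 clusters described here had high values in every library of the posterior cut edge (PCE) of the regenerating zebrafish tail fin and lower values at the anterior cut edge (ACE) and in the control. Outside PCE 126 of them were listed at 0, and the highest value of the other 24 was 62.9 FPKM. They were chosen by a score from 433380 clusters, the features of the deposited expression table. The score was the lowest log2(FPKM + 1) value of the PCE libraries at 24, 48 and 72 h post amputation, minus the highest value among the 3 ACE libraries and the control. FPKM counts fragments per kilobase of a feature, scaled to the size of the library. The score fixes that PCE lies above ACE and the control, so that difference is described here without a test and is no finding.

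The series holds 7 RNA-seq libraries of zebrafish tail fin, and each group is a single library. The groups were PCE at 24, 48 and 72 h, ACE at 24, 48 and 72 h, and a control for which no edge or time is stated. No genotype, strain, age or agent is stated for any group, and the number of fish behind a library is not stated. With 1 library per group no difference below has a replicate check, and no p-value is given.

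An amputated zebrafish fin regrows in stages. Epidermis first covers the wound, then cells of the stump lose their mature state and gather beneath it as a proliferating blastema, from which bone rays, connective tissue, vessels and nerves are rebuilt. The study's title concerns calcineurin, a phosphatase switched on by calcium and calmodulin whose best known substrates are the NFAT transcription factors, and the polarity of the blastema along the fin's long axis. In zebrafish, calcineurin is known as a regulator of the length to which fins grow back.

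The clusters carry no gene names. Of the 433380 identifiers, 0 matched the gene identifiers and symbols of the zebrafish reference tables, so no function, gene family or sequence can be given for a member, and the labelled tissue could not be checked against marker genes. An identifier such as Cluster-118330.78987 has a first number, before the point, and a second number after it. The sources used here do not say what these numbers stand for. Copies of a nearly identical transcript may be spread over several clusters, which makes the levels of such clusters uncertain. In bulk tissue, fewer cells of a type and less RNA per cell cannot be told apart.

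The libraries differed in make-up in ways that touch the members. The PCE libraries held 122580, 115844 and 96680 clusters above 0 at 24, 48 and 72 h, against 122838, 143247 and 181371 in ACE and 170017 in the control. PCE 24 h stood apart, with 33560 clusters above 0 in no other library that made up 29.3% of its total FPKM, against 1.96% to 7.45% elsewhere. The median of its clusters above 0 was 4.03 FPKM, against 1.93 and 1.92 FPKM in PCE at 48 and 72 h. Relative read depth, estimated from the steps of low values with the control set to 1, was 0.745, 0.986 and 0.771 in PCE at 24, 48 and 72 h and 1.15, 0.901 and 1.13 in ACE. By this estimate, depth was higher in ACE than in PCE at 24 and 72 h and slightly lower at 48 h. Read numbers are not stated. The part that these differences have in the results below was not tested, apart from the scalings given beside them.

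The highest score belonged to Cluster-86133.0. Its PCE values were 66.1 FPKM at 24 h, 79.1 FPKM at 48 h and 119.5 FPKM at 72 h, and it was listed at 0 in the 3 ACE libraries and in the control. Its values differed by a factor of less than 2 over the PCE times, with the highest at 72 h. Cluster-118330.78987 came next, at 102.5, 52.0 and 56.6 FPKM in PCE and at 0 in ACE and the control. This cluster was highest at 24 h and nearly level from 48 to 72 h.

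The scores of the 150 members ran from 6.07 to 2.21 with a median of 2.70, and the score fell off without a gap at the end of the list. The last member had PCE values of 13.6, 12.8 and 3.63 FPKM at 24, 48 and 72 h and was at 0 in the other libraries. The first cluster outside had the same score of 2.21, with 3.88, 3.63 and 4.23 FPKM in PCE, and was left out because its mean over the 7 libraries was lower (1.68 against 4.29 FPKM). In all, 3794 clusters had a score above 0 and 885 had a score of at least 1. All 150 members had a mean FPKM of at least 1, as had 122784 clusters of the table. Of those, 0.682% had a score of at least 1. By the rule all 150 members were higher by at least 1 (log2) in PCE than in ACE at each time, and so were 34.9%, 16.1% and 15.3% of the clusters with that mean at 24, 48 and 72 h. Nothing is read from these shares, since the rule used the same values.

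**Figure D1:**
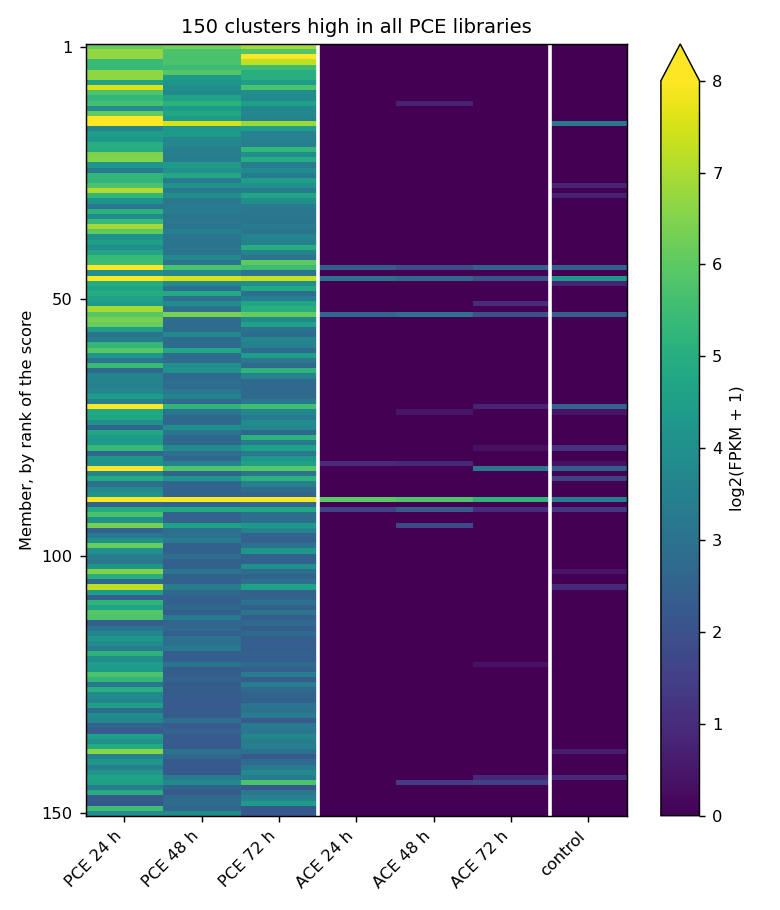
Log2(FPKM + 1) of the 150 members (rows, by rank of the score) in the 3 PCE libraries, the 3 ACE libraries and the control (columns, 1 library each), with colours capped at 8. The PCE columns are coloured throughout, and the ACE and control columns are at 0 for 126 members.

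The members were mostly of moderate level. Their median was 21.98 FPKM in PCE 24 h (3.65 to 2774 FPKM), 7.36 FPKM in PCE 48 h (3.73 to 998 FPKM) and 9.28 FPKM in PCE 72 h (3.63 to 2986 FPKM). Since a library's own levels can shift such medians, their place among all clusters above 0 in the same library is given too, and it was the 84.1st, 78.8th and 83.7th percentile at 24, 48 and 72 h. Values of at least 10 FPKM were reached by 122, 50 and 70 members at the 3 times, and values of at least 100 FPKM by 15, 3 and 6. Together the members held 0.403%, 0.124% and 0.272% of the total FPKM of PCE at 24, 48 and 72 h. In the ACE libraries and the control they held 0.0035% to 0.0041%.

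A few clusters carried much of these sums. Cluster-118330.139969 alone held 50.8% of the members' summed FPKM in PCE 72 h and 31.4% in PCE 48 h. In PCE 24 h the largest share was 22.8%, held by Cluster-118330.201012, a cluster described further on.

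The rule used the 3 PCE values but did not order them in time. It asks for a high lowest value, which limits how low a member can be at any time. On the deposited values most members were highest at 24 h. The highest of the 3 PCE values was at 24 h in 110 members, at 48 h in 7 and at 72 h in 33, and the lowest was at 24 h in 18, at 48 h in 78 and at 72 h in 54. Of 107046 clusters that averaged 1 FPKM or more and had a single highest PCE value, it was at 24 h in 48.9%, at 48 h in 32.2% and at 72 h in 18.8%. Of 57728 with that mean and a single lowest PCE value, it was at 24 h in 34.5%, at 48 h in 27.0% and at 72 h in 38.5%. In the members the highest PCE value was a median of 3.46 times the lowest, with a range of 1.07 to 42.1 times.

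A cluster was counted as higher or lower where its log2(FPKM + 1) values differed by 1 or more. From 24 to 48 h, 85 members were lower and 3 higher, with a median difference of -1.30 (log2). Of all clusters that averaged 1 FPKM or more, 36.5% were lower and 23.7% higher. Of the 37224 clusters above 0 in all PCE libraries, 21.1% were lower and 17.0% higher, with a median difference of -0.05 (log2). A background closer in PCE level is the 11923 clusters whose 3 PCE values all reached 3.63 FPKM, the lowest PCE value of any member. It is unlike the members in other ways, since 90.9% of it was above 0 in all 7 libraries, against 5 of the members. Of the 11923 clusters, 14.4% were lower and 19.8% higher at 48 h than at 24 h, against 56.7% of the members lower and 3 of the 150 higher. Their median difference was 0.16 (log2), and among the 11909 of them without a tie the highest PCE value was at 24 h in 4292 clusters, at 48 h in 5496 and at 72 h in 2121.

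From 48 to 72 h, a step that does not involve PCE 24 h, the balance of the members lay the other way. Of the 150, 31 were higher (20.7%) and 7 lower (4.67%), with a median difference of 0.24 (log2). Of the 11923 clusters, 6.34% were higher and 23.8% lower, with a median of -0.37, and of those averaging 1 FPKM or more, 14.7% were higher and 23.6% lower. Of the 37224 clusters above 0 in all PCE libraries, 9.04% were higher and 20.3% lower. More members were higher than lower at this step, whereas more clusters of each background were lower than higher on the deposited values. This course was not particular to the members. Of the 735 clusters below the members with a score of at least 1, 13.9% were higher and 5.99% lower at this step. From 24 to 48 h, 3.67% of these 735 clusters were higher and 55.2% lower.

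From 24 to 72 h, 79 members were lower (52.7%) and 10 higher (6.67%), with a median difference of -1.04 (log2). The corresponding shares were 20.7% lower and 11.1% higher among the 11923 clusters, and 38.5% lower and 16.9% higher among those averaging 1 FPKM or more. Of the 37224 clusters above 0 in all PCE libraries, 25.7% were lower and 10.9% higher. Among the 735 clusters below the members, 51.3% were lower and 6.67% higher, close to the shares of the members.

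The size and in part the direction of these courses depended on how the libraries were scaled. With median-of-ratios scaling, which shifted 72 minus 48 h by 0.41 (log2) in clusters above 0 in all libraries, 92 of the same members were lower and 3 higher from 24 to 48 h, and 4 were lower and 58 higher from 48 to 72 h. Of the 11923 clusters, 17.0% were lower and 16.5% higher at the first step under this scaling, and 11.1% were lower and 14.6% higher at the second. Quantile normalization shifted 48 minus 24 h by 0.84 and 72 minus 24 h by 1.21 in those clusters. Under it 38 members were lower and 19 higher from 24 to 48 h, and from 24 to 72 h the median difference turned round to 0.40, with 24 lower and 49 higher. From 24 to 48 h 25.3% of the members were lower and 12.7% higher under quantile normalization, against 4.71% and 53.2% of the 11923 clusters. From 24 to 72 h 16.0% of the members were lower and 32.7% higher, against 3.65% and 54.3% of those clusters, whose median difference was 1.10. From 48 to 72 h 32.0% of the members were higher under quantile normalization and 3 of the 150 lower, against 12.1% and 11.2% of those clusters. The 11923 clusters were thus nearly balanced from 48 to 72 h under both scalings, and the opposite direction of members and background at that step was seen on the deposited values.

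**Figure D2:**
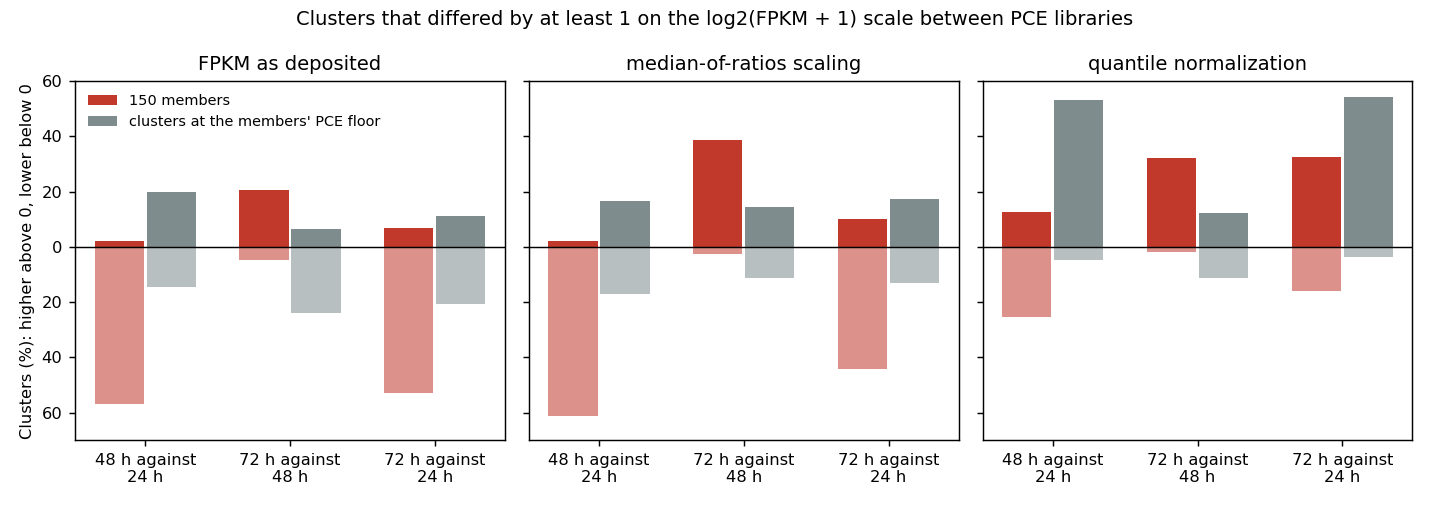
Percentage of clusters higher (above 0) or lower (below 0, paler) by at least 1 on the log2(FPKM + 1) scale between PCE libraries, for the 150 members (red) and the 11923 clusters with all PCE values of at least 3.63 FPKM (grey), on deposited values and under 2 scalings. At 48 h against 24 h the lower share of the members is above that of the other clusters in all panels, while the balance of higher and lower at 72 h against 24 h turns round under quantile normalization.

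Taking both steps into account, 60 members (40.0%) were lower at 48 h and then changed by less than 1, with medians of 34.3, 7.27 and 7.56 FPKM at 24, 48 and 72 h. This course was seen in 10.4% of the 11923 clusters. Another 51 members stayed within 1 at both steps, at medians of 11.02, 7.60 and 8.20 FPKM, against 49.8% of those clusters. A dip was seen in 22 members (14.7%), which were lower at 48 h and higher again at 72 h, with medians of 23.4, 5.47 and 19.6 FPKM, against 3.27% of those clusters. The remaining 17 were made up of 7 that were higher only at the second step, 4 that were lower only at the second step, 3 lower at both, 2 higher at both and 1 higher only at the first. Of the 11923 clusters, 2.74% were higher only at the second step, 13.2% lower only at the second, 0.746% lower at both, 0.327% higher at both and 9.59% higher only at the first.

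**Figure D3:**
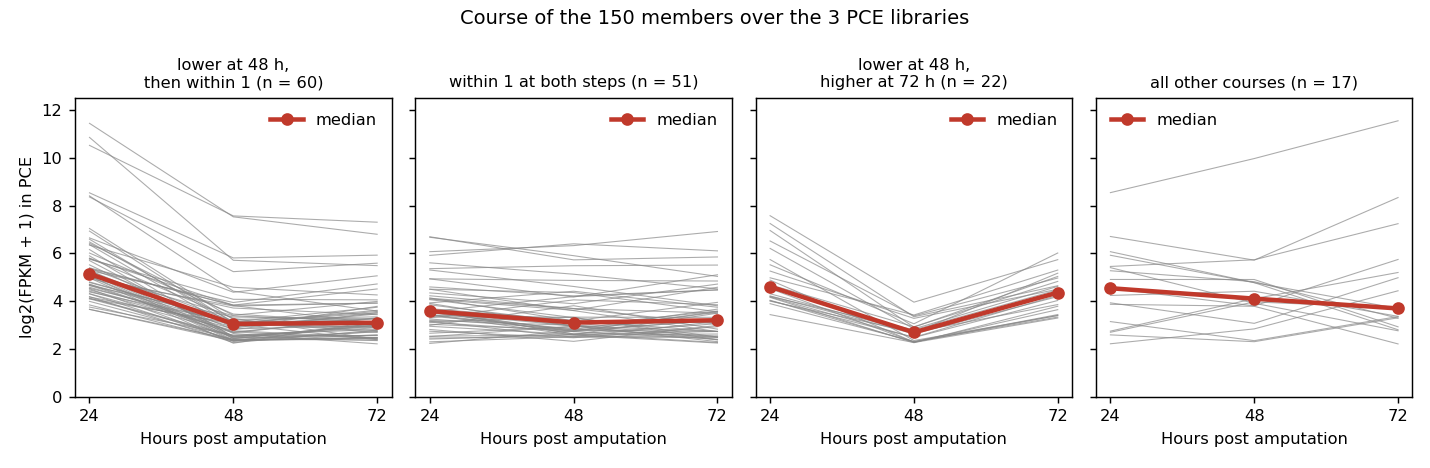
Log2(FPKM + 1) of each member (grey lines) and the median (red) at 24, 48 and 72 h in PCE, 1 library per time, on deposited values. The panels show the 60 members lower at 48 h and then within 1, the 51 within 1 at both steps, the 22 with a dip at 48 h, and the other 17. Under quantile normalization the members' median difference from 24 to 72 h turns round.

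The members with the largest differences show these courses at single clusters. Cluster-118330.139969 was higher at each step, with 371, 998 and 2986 FPKM in PCE at 24, 48 and 72 h. In ACE it stood at 62.9, 54.1 and 35.9 FPKM at the same times, and the control had 9.74 FPKM. Its difference from 24 to 72 h was 3.01 (log2) in PCE, the largest positive difference of any member, while its ACE values were lower at each later time.

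Cluster-118330.62242 had the next largest positive difference, at a far lower level, with 5.71, 16.2 and 35.7 FPKM in PCE and 0 in ACE and the control. These were the 2 members that were higher at both steps.

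Cluster-118330.148308 showed the largest negative difference. Its PCE values were 1845 FPKM at 24 h, 51.3 FPKM at 48 h and 43.8 FPKM at 72 h. It stood at 4.01, 2.62 and 4.43 FPKM in ACE and at 4.28 FPKM in the control. The value in PCE 24 h was 35.9 times that in PCE 48 h, whereas the 3 ACE values and the control lay close together. Cluster-118330.114395 had the next largest difference from 24 to 72 h, with 337, 20.4 and 11.02 FPKM in PCE and 0 in ACE and the control. From 24 to 48 h the negative difference next in size was that of Cluster-118330.52756, which was higher again at 72 h, with 123, 6.53 and 31.8 FPKM in PCE and 0 elsewhere.

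From 48 to 72 h the largest positive difference was that of Cluster-62532.0, with PCE values of 44.9 FPKM at 24 h, 7.30 FPKM at 48 h and 63.6 FPKM at 72 h. Cluster-118330.96229 followed with 103.3, 51.6 and 321.6 FPKM. The largest negative differences of this step were those of Cluster-46238.0, at 29.01, 28.97 and 6.6 FPKM, and Cluster-128619.1, at 59.5, 26.4 and 5.98 FPKM. All 4 clusters were listed at 0 in the ACE libraries and in the control. The number of fragments behind their PCE values is not known. The negative differences of this step (-1.98 and -1.97 on the log2 scale) were smaller in size than its positive ones (2.96 and 2.62).

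Across the 150 members, log2 levels in pairs of PCE libraries had a Pearson correlation of 0.622 between 24 and 48 h, 0.543 between 24 and 72 h, and 0.759 between 48 and 72 h. Over the 11923 clusters the values were 0.762, 0.786 and 0.840. Rank correlations (Spearman) were lower, at 0.470, 0.419 and 0.530 in the members and 0.616, 0.653 and 0.725 in the 11923 clusters. Both sets have a lower limit on their PCE values, and its part in the correlations was not tested. In each set the highest r was between 48 and 72 h. Clusters of a library share its depth and preparation and are not independent, so these values only describe the libraries.

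Traces outside PCE were few and low, which the score itself favours, because it subtracts the highest ACE or control value. Of the 150 members, 126 were listed at 0 in the 3 ACE libraries and the control, and 134 in the 3 ACE libraries. Of the 11923 clusters whose PCE values all reached 3.63 FPKM, 127 (1.07%) were at 0 in ACE and the control. These 127 include the 126 members, so nothing is read from the share. The ACE libraries held 6, 10 and 12 members above 0 at 24, 48 and 72 h, and the control held 19. This order followed the number of all clusters above 0 in these libraries, apart from the control, which held fewer clusters above 0 than ACE 72 h. A trace was seen in ACE and the control in 11 members, in the control alone in 8 and in ACE alone in 5. In 12 members it was in 1 library, in 6 in 2 libraries, in 1 in 3 libraries and in 5 in all 4.

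The highest trace of a member was below 1 FPKM in 12 of these 24 members. With 0.1 in place of 1 added to FPKM in the score, the 24 were not chosen. The lowest PCE value was 5.90 to 32.6 times the highest trace, with a median of 10.7 times. Members with a trace had a median lowest PCE value of 14.995 FPKM, against 5.5 FPKM in members without one, as the rule requires, because a cluster with a trace must stand higher in PCE to reach the same score.

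The highest value in ACE was that of Cluster-118330.139969, given above. Cluster-118330.201002 came next in ACE, with 369, 55.01 and 59.7 FPKM in PCE at 24, 48 and 72 h, 0, 0 and 8.07 FPKM in ACE, and 4.12 FPKM in the control. Its trace in ACE was thus at 72 h only, the time at which ACE held the most clusters above 0. The highest value in the control was that of Cluster-118330.130599, with 1463, 188 and 156.8 FPKM in PCE, 7.03, 5.38 and 2.97 FPKM in ACE and 18.4 FPKM in the control. In this cluster the control lay above each ACE library.

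**Figure D4:**
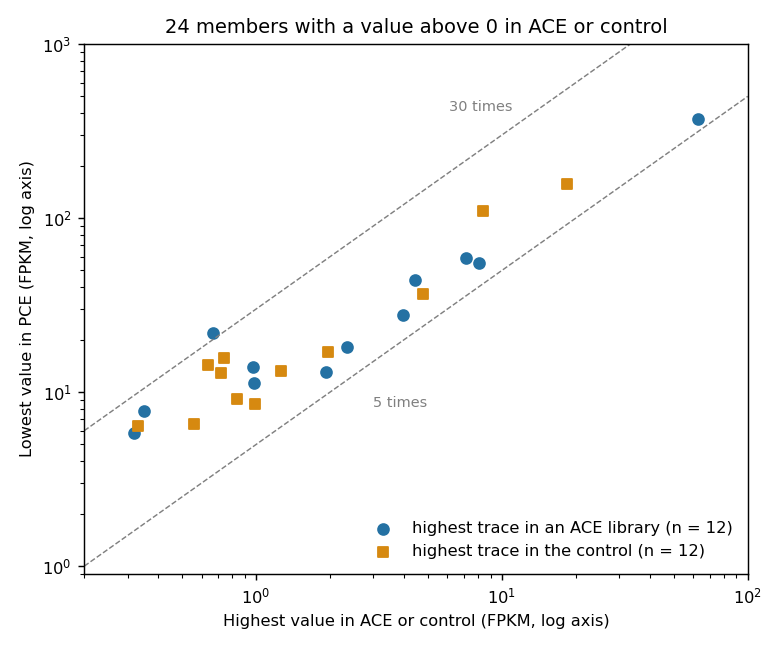
Lowest PCE value against the highest ACE or control value (FPKM, log axes) of the 24 members with a value above 0 in ACE or the control, marked by where the highest trace was (ACE in 12, control in 12). Dashed lines mark ratios of 5 and 30, and all but 1 member lie between them, with ratios from 5.90 to 32.6.

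The identifiers were not used by the rule. Of the 150 members, 59 (39.3%) carried the first number 118330, the most used of the table, 85 (56.7%) had a first number that no other cluster carried, and 6 shared theirs with a few clusters. The 91 members outside 118330 had 91 different first numbers. Of all deposited clusters 58.6% carried 118330 and 31.9% stood alone under their first number. Among the 11923 clusters with PCE values as high as those of the members, 97.8% carried 118330 and 1.42% stood alone. Most of those clusters (90.9%) were above 0 in all 7 libraries. The 735 clusters with a score of at least 1 below the members resembled the members in this respect, with 33.9% under 118330 and 57.0% alone. Clusters above 0 in PCE 24 h and no other library had shares of 18.3% and 71.3%.

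The 59 members under 118330 had medians of 36.5, 9.63 and 13.4 FPKM in PCE at 24, 48 and 72 h, and the 85 that stood alone had 18.8, 6.54 and 8.59 FPKM. The highest value was at 24 h in 41 of the 59 and in 65 of the 85. From 24 to 48 h, 33 of the 59 and 49 of the 85 were lower. A trace in ACE or the control was found in 19 of the 59, in 4 of the 85 and in 1 of the other 6. Level and trace are linked by the rule, since a cluster with a trace must stand higher in PCE to reach the same score. The trace counts of these groups are therefore no separate finding, and the part of level in them was not tested.

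The 6 members that shared a first number had 8 relatives outside the list. Of the 8, 0 had a score above 0. Of these relatives, 6 were above 0 in a PCE library and 2 in ACE or the control. Cluster-138804.2, chosen after its values were seen, had 38.3 FPKM in ACE 24 h and no value above 0 elsewhere, whereas the member Cluster-138804.0 had 88.1, 7.80 and 6.41 FPKM in PCE and 0.33 FPKM in the control.

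Close second numbers under 118330 went with a similar course at unequal levels in one place. Cluster-118330.201002, Cluster-118330.201010 and Cluster-118330.201012 are members whose second numbers lie within 10 of each other, while the next smallest gap between members was 98 and the median gap 2538.5. The last 2 were singled out after their values were seen. Cluster-118330.201012 had PCE values of 2774 FPKM at 24 h, 183 FPKM at 48 h and 110.2 FPKM at 72 h, and stood at 0 in ACE and at 8.36 FPKM in the control. Cluster-118330.201010 had 327, 36.6 and 47.1 FPKM in PCE at these times and stood at 0, 0 and 0.74 FPKM in ACE and at 4.76 FPKM in the control. All 3 were far higher at 24 h than later and had a trace in the control.

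The 31 clusters with second numbers from 200992 to 201022, which reach 10 numbers beyond these members on each side, shared that profile in part. Leaving out the 3 members, 15 of the other 28 were above 0 in PCE 24 h, 8 in PCE 48 h and 6 in PCE 72 h. Above 0 in ACE were 1, 2 and 5 of them at 24, 48 and 72 h, and in the control 7. Their summed FPKM was 2922, 35.1 and 132.6 in PCE at 24, 48 and 72 h, against 11.3, 2.67 and 4.23 in ACE and 27.3 in the control. Most of the sum in PCE 24 h came from Cluster-118330.201014 (1373 FPKM) and Cluster-118330.201016 (1010 FPKM), singled out after their values were seen. Cluster-118330.201016 also held 16.7 FPKM of the sum in the control. PCE 24 h was the highest library in 53.6% of the 28, against 10.9% of all clusters under 118330. Whether these clusters belong to the same or to separate transcripts is not known here, so the 3 members may not be independent of each other.

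**Figure D5:**
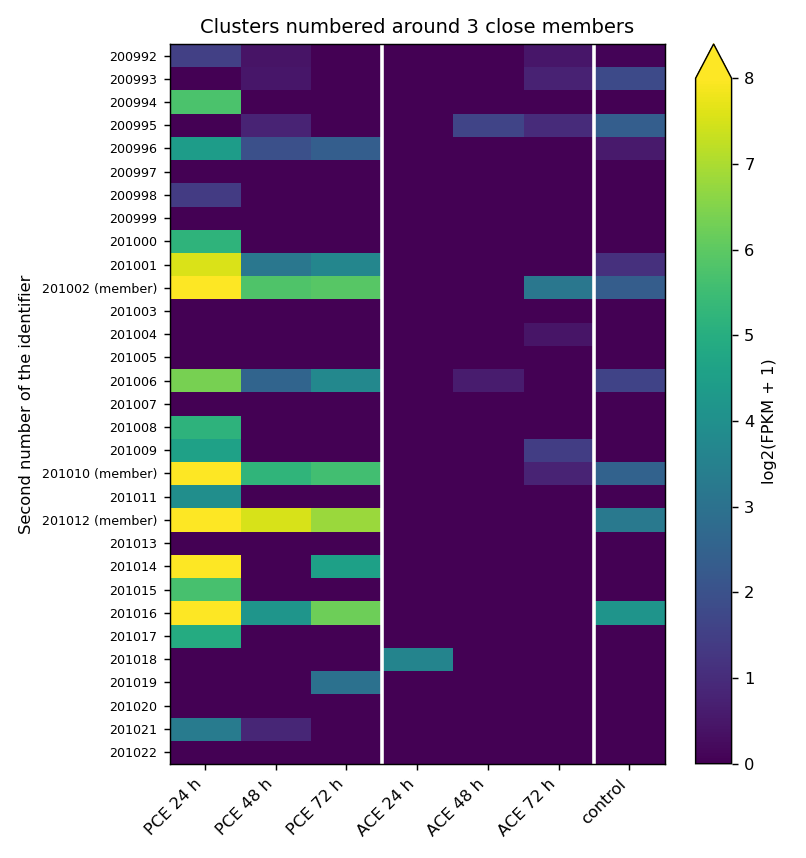
Log2(FPKM + 1) of the 31 clusters with second numbers from 200992 to 201022 (rows) in the 7 libraries (columns), with colours capped at 8 and the 3 members marked. PCE 24 h is the brightest column, and 8 clusters are at 0 in every library.

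Neighbours by number of all members under 118330 showed this to a lesser extent. Among the 578 clusters that were no members and lay within 5 numbers of one, PCE 24 h was the highest library in 17.1%. The share was 10.9% of all clusters under 118330. Any PCE library was the highest in 33.6% of the 578, against 22.7%. Clusters above 0 in PCE alone made up 11.2% of them, against 5.31%, and clusters above 0 in ACE alone 13.8%, against 13.1%. Without the numbers 200992 to 201022, PCE 24 h was the highest in 15.7% and any PCE library in 32.7%. Clusters above 0 in PCE alone then made up 10.4%, and those in ACE alone 14.1%. A score of at least 1 was reached by 6 of the 578 (1.04%), or 0.893% without these numbers, against 0.121%. Within 1 number of a member, 33.3% of 117 clusters were highest in a PCE library, 11.1% were above 0 in PCE alone and 17.9% in ACE alone. Within 10 numbers these shares were 30.5%, 9.41% and 13.2% of 1148 clusters, and 0.610% reached a score of at least 1, or 0.446% without the numbers 200992 to 201022.

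Whether clusters chosen in this way stay high in PCE in libraries that the choice did not use was examined by leaving out both libraries of a time, choosing 150 clusters by the same score from the other 5, and reading the 2 unused libraries. Of the clusters chosen without 24 h, 14 were higher by at least 1 in PCE 24 h (9.33%) and 2 in ACE 24 h (1.33%), while 130 were listed at 0 in both. Among clusters with a mean of at least 1 FPKM in the 5 libraries used, 12.0% were higher in PCE 24 h and 20.4% in ACE 24 h.

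Of those chosen without 48 h, 24 were higher in PCE 48 h (16.0%) and 4 in ACE 48 h (2.67%), with background shares of 9.09% and 13.7%. Of those chosen without 72 h, 22 were higher in PCE 72 h (14.7%) and 10 in ACE 72 h (6.67%), with background shares of 9.76% and 23.9%. At each time more of the chosen clusters were higher in PCE than in ACE, whereas in the background more were higher in ACE. The chosen clusters had been picked for low values in the other ACE libraries and the control, and the background had not. This contrast therefore cannot show whether they stay high in PCE. The share higher in PCE lay below the background at 24 h and above it at 48 and 72 h. This order is no finding, because the clusters counted as higher in PCE were mostly members. The clusters chosen without 24, 48 and 72 h included 12, 21 and 22 of the members. By the rule, these members are higher by at least 1 in PCE than in ACE at each time. They thus made up 12 of the 14, 21 of the 24 and 22 of the 22 clusters counted as higher in PCE. The lists hold mostly other clusters, but the shares higher in PCE come mostly from members. The rule sets these shares in large part, and nothing is read from them. At each time most of the chosen clusters (116 to 130 of 150) were listed at 0 in both unused libraries. Of the background clusters, 43.1%, 44.5% and 40.3% were above 0 in the unused PCE library at 24, 48 and 72 h, against 18, 26 and 24 of the 150 chosen. Of clusters chosen in the same way for high ACE values, 23.3%, 34.7% and 35.3% were higher in ACE at 24, 48 and 72 h. In PCE 6.67%, 12.7% and 18 of 150 were higher. The background shares higher in ACE were 20.4%, 13.7% and 23.9%, so the share at 24 h was only slightly above its background. More background clusters were also higher in ACE than in PCE at each time. Any chosen cluster that met the full rule with ACE and PCE exchanged is higher in ACE by that rule. How many did was not counted. Of the clusters chosen for high ACE values, 104, 37 and 66 were listed at 0 in both unused libraries.

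A mirror set of 150 clusters, chosen by the same score with ACE and PCE exchanged, serves as a comparison. Its scores ran from 4.29 to 1.81, against 6.07 to 2.21 for the members, and 130 of its clusters were at 0 in PCE and the control. Its medians were 9.96, 7.65 and 6.04 FPKM in ACE at 24, 48 and 72 h, against 21.98, 7.36 and 9.28 FPKM for the members in PCE. From 24 to 48 h, 85 members were lower and 3 higher in PCE, and 43 clusters of the mirror set were lower and 23 higher in ACE. From 48 to 72 h, 7 members were lower and 31 higher in PCE, against 32 lower and 17 higher of the mirror set in ACE. Of the 22882 clusters whose ACE values all reached the lowest ACE value of the mirror set, 9.11% were lower and 10.7% higher in ACE at the first step, and 11.7% were lower and 7.56% higher at the second. By identifier, 56.7% of the members stood alone under their first number, against 8.67% of the mirror set, of which 90.0% carried 118330. None of these differences could be tested with 1 library per group.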

How the data were processed

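The authors deposited a table of FPKM values with 1 column per library. RNA was extracted with Trizol and made into libraries with an NEBNext Ultra kit, per the labels' protocols. The tools named are HTSeq 0.9.1, HISAT2 2.0.5 and edgeR, per the submitters' processing notes, which state no role for any of them. Genome build, annotation and how clusters were formed: not given in the sources used here. Read numbers are not stated in the table, so no counting error could be attached to a value. Some values recurred exactly between members, in pairs singled out after their values were seen. Cluster-86133.0 and Cluster-118330.54562 both had 66.14 FPKM in PCE 24 h. Cluster-118330.54562 and Cluster-128619.1 both had 26.36 FPKM in PCE 48 h. Whether such member values rest on few fragments was not tested. Relative depth was estimated from the most frequent log2 ratio between libraries of values of 0.15 to 0.3 FPKM in clusters above 0 in at most 4 libraries, and 20 of 21 pairs of libraries lay within 0.05 (log2) of the estimate.

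Values were analysed as log2(FPKM + 1), which understates differences of low clusters. Members, rules and alternatives were chosen with earlier results of these data known. No gene names could be paired, so the 2 highest scores, the 2 largest positive and negative differences of each pair of PCE times and the 2 highest values in ACE and in the control were named. Background shares, neighbours by number and left-out times were chosen after seeing the data. Alternatives were the pseudocount, a mean filter, scaling, the score, the list's length, the size of a difference and each library left out. The ranking was tested on simulated data. Python 3.11.15, numpy 2.4.6, pandas 2.3.3 and matplotlib 3.10.9 were used.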

Additional observations from a re-analysis of the deposited data

Results flagged for a closer look

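Among the 5 members above 0 in every ACE library, the change from 24 to 72 h had opposite signs at the edges and differed by at least 1 (log2) in 2. In Cluster-118330.139969 it was 3.01 in PCE and -0.79 in ACE, a difference of 3.80. In Cluster-118330.148308 it was -5.36 in PCE and 0.12 in ACE, a difference of -5.48, which rests on the PCE 24 h library. With 1 library per edge and time neither difference was tested. Groups of a single library allow no search for outlying libraries.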

How the results depend on the processing

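With 1 library per group, differences cannot be set against replicate spread, and 0 marks no known number of reads. A list of 100 or 300 clusters gave time course shares close to those of the 150 (median 72 minus 24 h -0.94 and -1.01, against -1.04). A pseudocount of 0.1 shared 126 of the members, with 12 lower from 48 to 72 h against 7. All 150 clusters chosen with it were at 0 in ACE and the control. The 24 members with a trace, among them Cluster-118330.139969 and Cluster-118330.148308, were thus in the list with the pseudocount of 1 and not with 0.1. A mean FPKM of at least 5 shared 92, with a median of -1.74. Median-of-ratios scaling shared 133, with 48 higher from 48 to 72 h and a median of -0.72 in both the newly chosen and the same members, of which 58 were higher and 4 lower from 48 to 72 h. Quantile normalization shared 122, with 8 higher and 48 lower from 24 to 48 h, 4 lower from 48 to 72 h, 27 higher and 34 lower from 24 to 72 h and a median of -0.062. In the same members it gave 19 higher and 38 lower, 48 higher and 3 lower, and 49 higher and 24 lower for these steps, with the median reversed to 0.40. The difference of means in place of the lowest against the highest shared 56, with 18 higher from 24 to 48 h, 58 higher and 37 lower from 48 to 72 h, 26 higher from 24 to 72 h and a median of -1.95. A size of 1.5-fold gave 7 higher from 24 to 48 h and 54 higher and 23 lower from 48 to 72 h. A size of 4-fold gave 0 higher and 38 lower, 4 higher and 0 lower, and 3 higher and 33 lower from 24 to 48, 48 to 72 and 24 to 72 h. Where not shown by the setting itself, the cause was not tested.

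The list depended most on needing all 3 PCE libraries. Chosen without PCE at 24, 48 or 72 h, it shared 12, 19 and 21 members, and 136, 127 and 129 of its clusters were listed at 0 in the library left out, which sets the time courses. Those lists had 0 to 140 members higher and 2 to 143 lower from 24 to 48 h, 3 to 144 higher and 0 to 135 lower from 48 to 72 h, and 2 to 142 higher and 3 to 141 lower from 24 to 72 h. The median of 72 minus 24 h ran from -5.43 to 4.70, and was reversed (4.70) without PCE 24 h. Without an ACE library or the control, 118 to 135 members were shared, so over all libraries left out 12 to 135 were. Between 147 and 150 clusters of the lists without a PCE library were at 0 in ACE and the control. No paired analysis was possible because the labels give no replicate numbers and each group had 1 library.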
